A study of Drosophila melanogaster with 2 samples.

Results

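A 300-kb stretch of the left arm of Drosophila melanogaster chromosome 2 (chr2L:10200001-10500000, assembly dm6) where peaks of the tagged CG30020 product are dense was examined together with its flanks, within a 1000-kb interval (chr2L:10000001-11000000). Members were the rows of the pooled peak list whose summit lay in that interval, 411 of 30000 rows. Of these, 299 lay in the block and 112 in the remaining 700 kb, called the rest below. A row was marked as an IDR row when it also stood in the list thresholded by irreproducible discovery rate (IDR), a measure of how well replicates rank the same peaks. The mark held for 102 rows of the block and 19 of the rest, of 5048 in all. The block was selected on the density of these same pooled rows, so every value below that comes from the peaks describes the block and tests nothing.

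The data were chromatin immunoprecipitation and sequencing (ChIP-seq) profiles of a single group. It has 2 biological replicates, which the labels call 2 and 3, and no second condition to compare with. Whole embryos of both sexes, aged 0 to 24 h, came from 1 transgenic line that stably carried CG30020 with green fluorescent protein (eGFP) at its C terminus, and the tag was precipitated with an anti-GFP antibody from fragments of 200 to 800 bp. All cell types and stages of embryogenesis were mixed in each library, and peak lists carry no expression values with which to check the tissue. The labels do not name what drives the transgene or where it is inserted. Read depth is unknown, and the control alignment that the peaks were called against was not part of the analysis.

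In ChIP-seq, a peak is an interval where more fragments than in the control were recovered, and its summit is the base of highest pileup. In Drosophila, genes used by most cells often stand close together, and neighbours on opposite strands can start close to each other and so share a promoter region. Promoters of such genes are known for short sequence elements, among them the DNA replication-related element (DRE) bound by DREF, the overlapping core recognised by the insulator protein BEAF-32, and Motif 1, bound by M1BP.

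The sequences under the strongest summits are shown because the signal in the block peaked on them. They are plus-strand bases, written 5′ to 3′, from RefSeq Release 6, the sequence of dm6, within 75 bp of the summit and cut back to bases outside annotated exons. Capitals mark letters of any of 8 motifs searched on either strand. The DRE was spelled TATCGATA, and its inner letters ATCGAT were searched for as the DRE core. The core for BEAF-32, which overlaps the DRE, was CGATA. Motif 1 was spelled GGTCACAC. The TATA box was searched for as TATAAA and the E-box as CAGCTG. The GAGA element was GAGAG, and letters found in many initiators at start sites were TCAGT. The summit shared by Npc1a and Prosalpha6, described below, lies in an exon and is not shown. The 7 windows of the block were as follows.
mRpS7 and Cdk1, chr2L:10386389-10386539: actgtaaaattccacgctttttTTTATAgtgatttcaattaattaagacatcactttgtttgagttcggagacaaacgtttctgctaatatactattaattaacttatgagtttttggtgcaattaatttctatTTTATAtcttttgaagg
ClpP and CtsL4, chr2L:10356695-10356794: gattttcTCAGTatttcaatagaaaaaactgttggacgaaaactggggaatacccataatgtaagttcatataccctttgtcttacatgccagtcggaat
CG5056, chr2L:10366592-10366691: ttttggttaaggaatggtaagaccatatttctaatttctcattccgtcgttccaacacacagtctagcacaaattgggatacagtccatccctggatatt
me31B, chr2L:10239135-10239285: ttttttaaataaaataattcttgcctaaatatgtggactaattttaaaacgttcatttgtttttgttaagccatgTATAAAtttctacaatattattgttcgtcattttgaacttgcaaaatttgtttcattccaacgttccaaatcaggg
Usp14 and CG4972, chr2L:10314478-10314628: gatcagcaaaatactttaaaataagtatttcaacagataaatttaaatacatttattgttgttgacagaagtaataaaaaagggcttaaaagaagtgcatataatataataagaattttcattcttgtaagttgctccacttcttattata
CG5676, chr2L:10255892-10255997: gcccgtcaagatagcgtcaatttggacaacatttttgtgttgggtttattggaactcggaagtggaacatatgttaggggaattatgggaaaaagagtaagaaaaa
CG5708, chr2L:10226809-10226952: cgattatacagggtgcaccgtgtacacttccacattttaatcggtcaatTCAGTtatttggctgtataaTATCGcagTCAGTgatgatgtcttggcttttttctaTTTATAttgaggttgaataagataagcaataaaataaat

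The corresponding 3 windows from the rest, whose signal was far lower, were as follows.
Nup107, chr2L:10736072-10736213: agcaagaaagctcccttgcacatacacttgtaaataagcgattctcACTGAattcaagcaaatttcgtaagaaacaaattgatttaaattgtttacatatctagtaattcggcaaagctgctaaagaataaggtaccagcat
CG12253 and piwi, chr2L:10987642-10987792: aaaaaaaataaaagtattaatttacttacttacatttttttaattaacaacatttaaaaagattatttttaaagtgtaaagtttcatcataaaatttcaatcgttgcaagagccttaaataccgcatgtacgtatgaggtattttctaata
Dpy-30L1 and EMC3, chr2L:10732487-10732637: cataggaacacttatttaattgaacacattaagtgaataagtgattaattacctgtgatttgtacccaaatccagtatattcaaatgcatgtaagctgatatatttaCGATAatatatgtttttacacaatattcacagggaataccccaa

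None of these 10 windows held the DRE, the DRE core or Motif 1. The windows at CG5708 and Dpy-30L1 each held a BEAF-32 core, and those at CG5056, Usp14, CG5676 and CG12253 held no searched motif. Within 50 bp of all IDR summits, the DRE stood at 7.84% of those in the block (8 of 102), at 0 of 19 in the rest and at 5.85% of the 5044 IDR summits on the main chromosomes. The BEAF-32 core, whose letters occur inside the DRE, was found at 34.3% in the block, 47.4% in the rest (9 of 19) and 26.4% of those 5044. The DRE core stood at 19.6%, 26.3% and 13.2%, and Motif 1 at 3.92% (4 summits), 0% and 2.89%. The other shares, in the same order, were 19.6%, 31.6% and 23.1% for the TATA box, 1.96%, 10.5% and 3.89% for the E-box, 3.92%, 0% and 7.1% for GAGA, and 18.6%, 5.26% and 16.3% for the initiator letters. With 19 summits in the rest, each one moves a share there by several points. Over all pooled rows, GC content within 50 bp of the summit averaged 39.4% ± 10.1 (SD, n = 299 rows) in the block and 38.1% ± 11.6 (n = 112 rows) in the rest. At IDR summits the order turned, with 35.3% ± 9.43 (n = 102 rows) and 36.6% ± 10 (n = 19 rows), and the whole block held 40.4% GC and the rest 42.3%.

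The strongest summit of the block stood between mRpS7, a protein of the small subunit of the mitochondrial ribosome, and Cdk1, the kinase that drives entry into mitosis. Signal values were deposited on an unstated scale, so each was divided by the median over its own list, and the quotient is called the multiple. Where 3 multiples follow a gene name, they are in the order pooled list, replicate 2, replicate 3. The summit at 10386464 had a multiple of 332.7 in the pooled list, 322.7 in replicate 2 and 240.6 in replicate 3, and ranked 14 of 30000. It lay 198 bp upstream of the start of mRpS7 and 202 bp upstream of that of Cdk1, starts on opposite strands 400 bp apart. Both replicates were high here, and replicate 2 gave the larger multiple.

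Other pairs of oppositely oriented genes shared a strong summit. Between ClpP, the proteolytic subunit of a mitochondrial protease, and CtsL4, named for cathepsin L, the multiples were 318.6 pooled, 272.4 in replicate 2 and 250 in replicate 3, with starts 198 bp apart. At Npc1a, a sterol transporter, and Prosalpha6, a subunit of the proteasome core, they were 264.5, 229.1 and 208.1, with starts 135 bp apart. That summit lay 25 bp downstream of the start of Npc1a, not between the 2 starts. Between Usp14, a deubiquitinase, and CG4972 the multiples were 258.8, 259.2 and 182.4. These 3 pairs lay within a range close to that of mRpS7 and Cdk1 in both libraries.

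Lower down, Bug22, a ciliary protein gene, and TfIIB, a general transcription factor of RNA polymerase II, shared 118.5 pooled, 96.5 and 95.7. CG31717 and bsk, the Jun kinase, shared 106.1, 79.4 and 90.7. The pair pie and Wdfy2 shared 101.6, 116.9 and 61.8, with starts 511 bp apart.

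Single promoters reached the same level. At CG5056 the multiples were 312.9 pooled, 270.4 in replicate 2 and 245.5 in replicate 3. At me31B, which encodes an RNA helicase of translationally repressed messenger particles, they were 288.7, 323.8 and 183.9. The replicates stood farthest apart there among the summits above 200 pooled, with replicate 2 the higher.

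CG5676 followed with 248.6, 194.2 and 205.6, and CG5708 with 231.3, 203.3 and 176.3. Ip259 and RpS27A, a ribosomal protein made as a fusion to ubiquitin, have the same annotated start, where the multiples were 224.8, 198.1 and 173.1. These 3 summits differed little between the libraries.

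The translation elongation factor gene eEF1delta had 105.3, 114.1 and 71.9, and l(2)SH0834 had 101, 72.2 and 87.2. Of the 15 strongest merged intervals of the block, 13 had their summit upstream of the nearest start, and 7 lay within 500 bp of the starts of genes on both strands. Replicate 2 exceeded replicate 3 in 12 of these 15, but in 35 of all 80 bound genes of the block.

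The 5 strongest intervals of the rest were far weaker and fell in the same kind of place. Nup107, a nuclear pore protein, had 21.5 pooled, 19.9 in replicate 2 and 15.8 in replicate 3, and ranked 617. CG12253 and piwi, an Argonaute protein of the germ line, shared 13.6, 11.4 and 10.8 between starts 386 bp apart. Dpy-30L1 and EMC3, a member of a membrane protein complex of the endoplasmic reticulum, shared 12.7, 8.94 and 11. Both replicates were within the same low range at these places.

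Trp1, a protein of endoplasmic reticulum translocation, had 12.1, 9.97 and 9.85, and TTLL4A, named as a tubulin tyrosine ligase-like protein, had 11.2, 7.36 and 10.1. The 15 block summits ran from 61.8 to 323.8 over both replicates and the 5 of the rest from 7.36 to 19.9. Both sets were picked for their pooled signal, so this separation describes the picks only. At all protein-coding genes with an IDR summit within 500 bp of a start, the pooled ranges overlapped. They were 4.39 to 332.7 in the block and 4.46 to 21.5 in the rest. In the block, 49 rows were above the strongest row of the rest, out of 616 such rows in the whole list. Of 159 rows anywhere with a multiple of at least 100, 19 stood in the block (11.9%), which held 0.997% of all pooled rows. Among the 50, 100 and 200 strongest merged intervals of the genome, 7, 9 and 21 lay in the block and 0 in the rest.

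**Figure D1:**
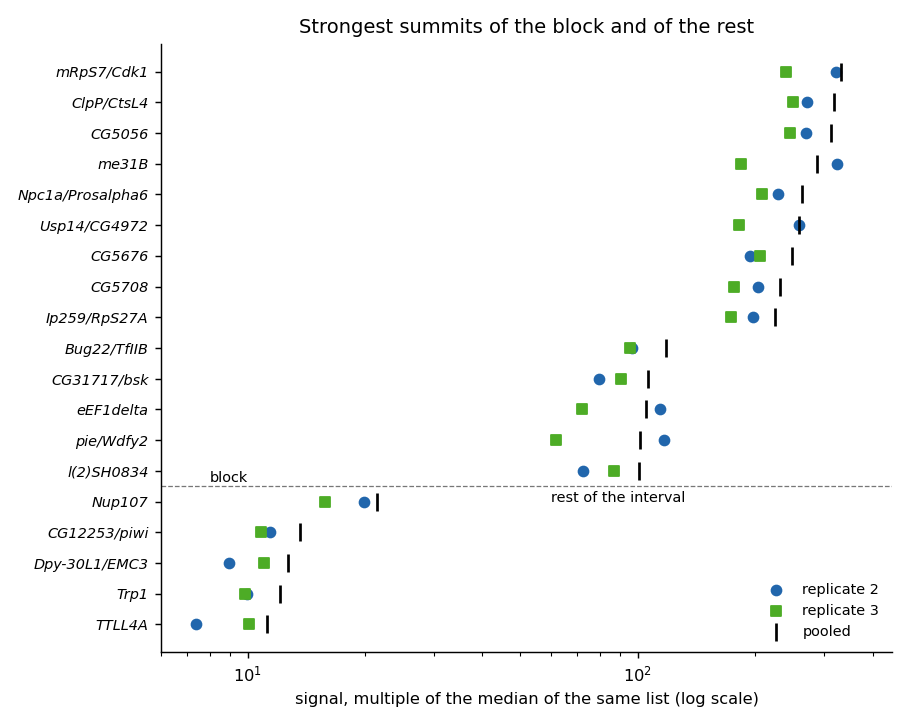
Signal of 14 of the 15 strongest merged IDR intervals of the block and the 5 strongest of the rest, as a multiple of the median of the same list on a log axis, for replicate 2, replicate 3 and the pooled list. The lowest block value of a replicate is 61.8 at pie/Wdfy2 and the highest replicate value of the rest is 19.9 at Nup107.

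Rows were dense throughout the block. It held 99.7 pooled rows per 100 kb against 16 in the rest, a ratio of 6.23. The replicates' own lists gave 104 and 22.3 rows per 100 kb in replicate 2 (ratio 4.67) and 100 and 15.1 in replicate 3 (ratio 6.6). Both libraries are contained in the pooled list and are no independent check. For IDR rows the densities were 34 and 2.71, a ratio of 12.5. Pooled intervals covered 56.1% of the bases of the block and 6.46% of the rest, and IDR intervals covered 31% and 1.04%.

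In 15 bins of 20 kb, the block held 12 to 25 pooled rows with a median of 21, and 0 bins were empty. The 35 bins of the rest held 0 to 15 rows, and 19 were empty. The median gap between neighbouring pooled summits was 852.5 bp in the block and 1123.5 bp in the rest, against 1031 bp over the whole list. The largest gap was 5189 bp in the block and 100144 bp in the rest. In the list of replicate 2 alone, 6 bins of the rest were empty and its largest gap was 54739 bp, whereas replicate 3 had 19 empty bins and a largest gap of 104945 bp.

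**Figure D2:**
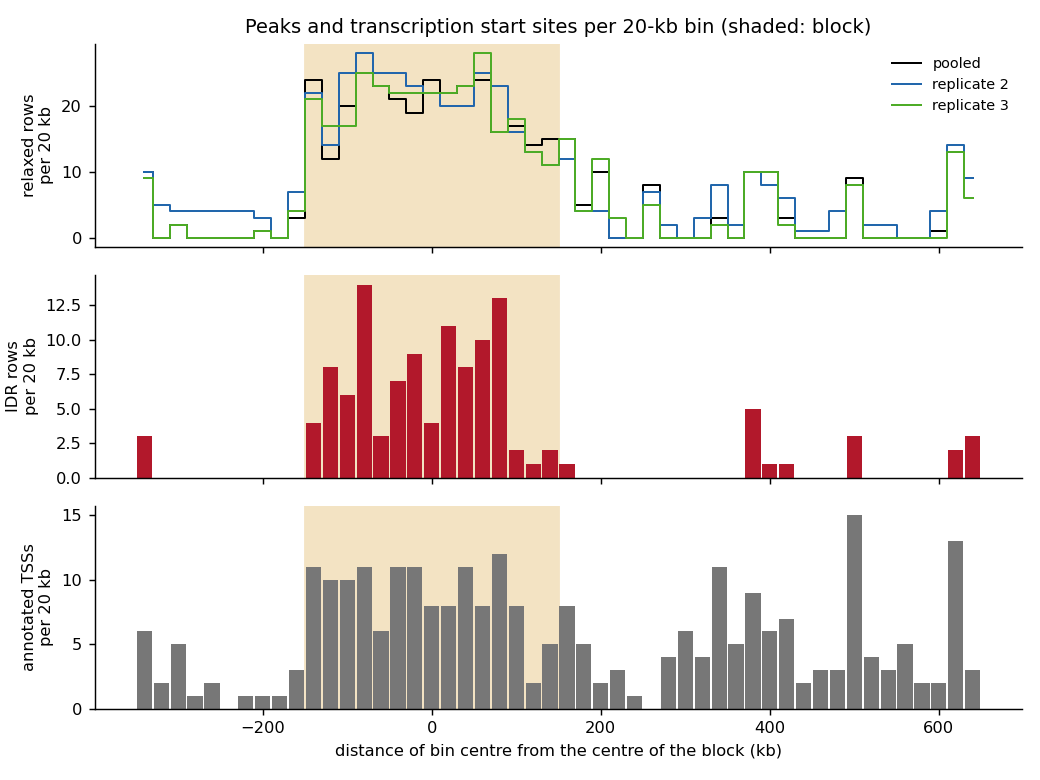
Rows of the pooled and replicate lists (top), IDR rows (middle) and annotated transcription start sites (bottom) per 20-kb bin against distance from the centre of the block in kb, with the block shaded. Each shaded bin holds at least 12 pooled rows, whereas 19 of the 35 other bins hold 0 pooled rows.

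At the left edge rows became dense abruptly in the pooled list, and at the right edge they thinned out. The last summit outside on the left, at 10198123, had a multiple of 1.37, and the first inside, at 10201026, had 12.9. It lay 22 bp downstream of the start of RpL7 and within 500 bp of that of Ripalpha. RpL7 is a protein of the large ribosomal subunit and Ripalpha is named as a replication protein A interacting factor. On the right, the last summit inside had 0.753 and the first outside 0.767. The 60 kb left of the block held 4 pooled rows and 0 IDR rows, whereas the 60 kb right of it held 30 and 1. The list of replicate 3 had 5 rows on the left and 31 on the right, and that of replicate 2 had 10 and 20. A run of 322 pooled summits with no gap above 10000 bp went from 10196913 to 10527398, or 330.5 kb.

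Signal fell off before the right edge. The first 240 kb of the block held 97 IDR rows with a median multiple of 20.7, and binding, as defined below for genes, was found at 75 of 87 protein-coding genes there (86.2%). The last 60 kb held 5 IDR rows with a median of 6.06 and a highest value of 22.2, at RluA-1, and 5 of 10 genes were bound. This last stretch had 15 of the 132 annotated transcription start sites (TSSs) of the block. IDR intervals covered 37.9% of the first stretch and 3.4% of the last, although pooled intervals still covered 31% of the last.

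**Figure D3:**
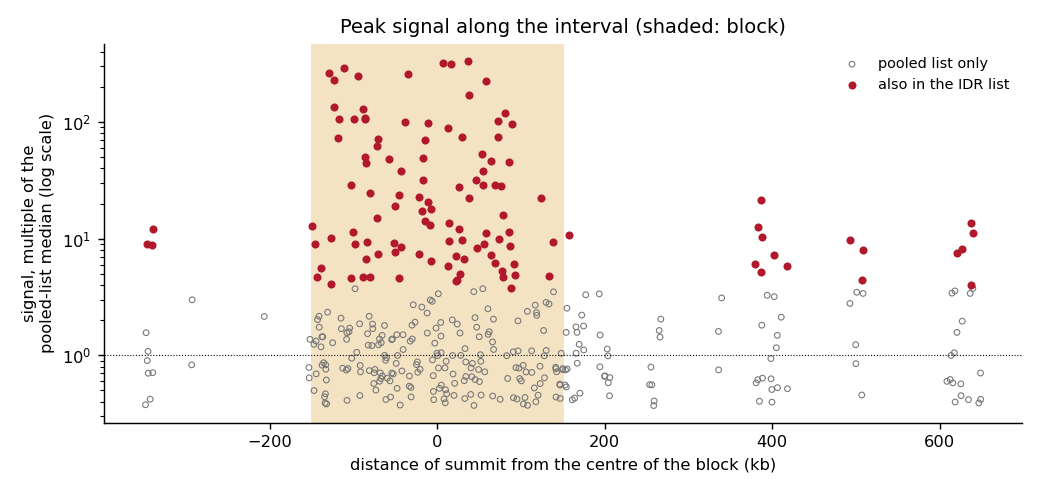
Signal of all 411 pooled rows of the interval, as a multiple of the pooled-list median on a log axis, against distance of the summit from the centre of the block in kb, with the block shaded. Filled points are IDR rows, which start at 3.8 and reach 332.7 inside the block and 21.5 outside it; open points are rows of the pooled list only.

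Among 13041 windows of 300 kb on the 5 large chromosome arms that did not overlap the block, taken every 10 kb, 0 held as many IDR rows as the block. Their median was 10, their 99th percentile 35 and the highest 55, on 2R from 5080001 to 5380000. These windows overlap each other and are given as a description. For the relaxed pooled rows the block did not stand alone: 78 windows (0.598%) held at least 299, 21 of them on 2L between 21900001 and 22400000 and 57 on 2R between 4500001 and 5810000.

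The annotation, which took no part in choosing the block, was also dense there. It listed 44 distinct TSS positions per 100 kb in the block and 21.1 in the rest, a ratio of 2.08, and 32.3 against 13.4 protein-coding genes per 100 kb. The 132 TSSs were reached in 72 of the other windows (0.552%). Those 72 windows held 2 to 54 IDR rows with a median of 9, and at most 214 pooled rows. Per annotated TSS, the block had 2.99 times as many pooled rows as the rest.

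**Figure D4:**
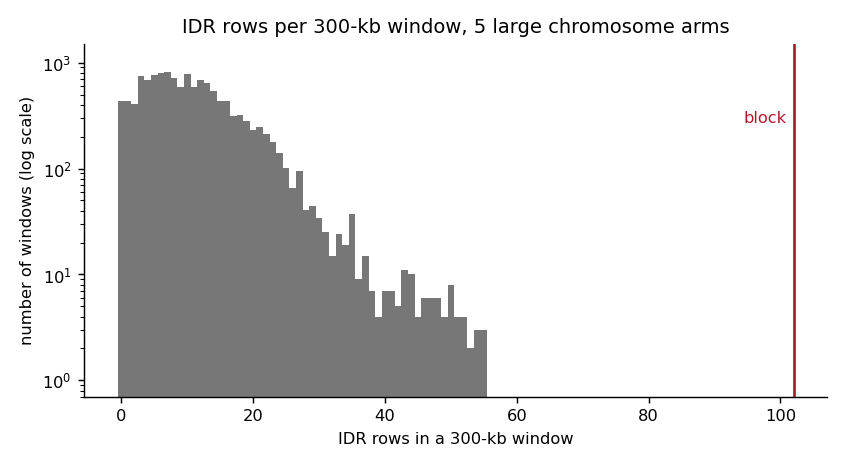
Number of 300-kb windows (log axis) by the number of IDR rows they hold, for the 13041 windows of the 5 large arms that do not overlap the block; the vertical line marks the block. The highest window holds 55 IDR rows and the block 102.

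The share of pooled rows at promoters, meaning within 500 bp of a TSS, was about the same in the block and its flanks. It was 46.8% (140 rows) in the block and 46.4% (52 rows) in the rest, against 30.7% of all pooled rows. Bases within 500 bp of a TSS made up 32.7% of the block, 17.3% of the rest and 13.6% of the genome. The share of rows thus exceeded the share of bases by less in the block than in the rest. Among IDR rows it was 95.1% (97 of 102) and 100% (19 of 19), against 72.3% of the whole IDR list. IDR summits at promoters lay a median of 40 bp upstream of the start in the block and 66 bp upstream in the rest, and 73.2% and 89.5% of them were upstream.

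The block and the rest differed in the height of promoter rows. Their median multiple was 8.97 in the block and 3.28 in the rest, against 2.7 for all promoter rows. Rows away from promoters had 0.831 and 0.725, against 0.798 for all such rows. The IDR list took 34.1% of the pooled rows of the block and 17% of those of the rest, against 16.8% of the whole list. It took 69.3% of promoter rows in the block, 36.5% in the rest and 39.6% in the whole list, but 3.14% of the rows away from promoters in the block (5 of 159), 0 of 60 in the rest and 6.73% in the whole list. IDR membership followed the signal: 0 rows outside the IDR list had more signal than its weakest row, at 3.79. Near that limit, the weakest IDR rows had 3.8 in the block and 4.02 in the rest, and the strongest rows left out had 3.72 and 3.74.

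**Figure D5:**
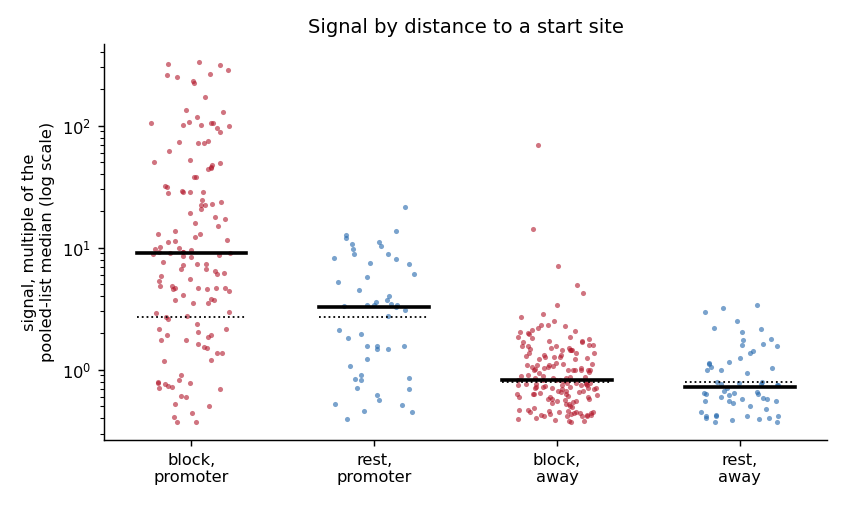
Signal of each pooled row, as a multiple of the pooled-list median on a log axis, for rows within 500 bp of a start site (promoter) and farther away, in the block and the rest; points are rows with random sideways scatter. Solid bars are the medians (8.97, 3.28, 0.831 and 0.725) and dotted bars the medians of all rows of that kind in the genome (2.7 and 0.798).

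Rows away from promoters lay mostly in coding exons in the block, 96 of 159 (60.4%), and mostly in introns in the rest, 40 of 60 (66.7%), with 9 (15%) in coding exons. Coding exons made up 59.6% of the bases away from promoters in the block and 18.3% in the rest. Introns made up 29.5% of those bases in the block, where they held 30.8% of the rows, and 54.9% in the rest, where they held 66.7%. Over the genome, coding exons held 7.06% of such rows and 15.9% of such bases. Intergenic rows were 5 in the block (3.14% of rows and 2.96% of bases) and 8 in the rest (13.3% of rows and 20% of bases).

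Only 5 rows away from promoters reached the IDR list in the block. The strongest stood in an intron of GATAd, a GATA-type zinc finger gene, at 10335131, 1217 bp downstream of the nearest start, with 70.1 pooled, 35.5 in replicate 2 and 68.5 in replicate 3. Replicate 3 was the higher there. A neighbouring summit in the same intron had 14.2 pooled. GATAd also had a promoter summit, at 49 pooled, 40.9 and 37.9.

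The others were 2 summits in a coding exon of rho-5, a rhomboid-family gene, at 7.07 and 4.29, and 1 in an intron of dpr19, an immunoglobulin-domain gene, at 4.94. In the rest, the strongest rows away from promoters had 3.39 in an intron of piwi, 3.18 in an intron at 10752450, whose nearest start belongs to an unnamed non-coding entry, and 2.99 in an intron of Pen, which encodes an importin alpha. None of these 3 was in the IDR list.

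IDR intervals were wider in the block, whereas the median width of pooled rows was 524 bp in the block, the rest and the whole list. Over IDR rows, the median width was 1607 bp in the block, 467 bp in the rest and 470.5 bp over the list. With each merged IDR interval counted once, it was 1207 bp, 460 bp and 433 bp. Several rows can share 1 interval with separate summits: the 102 IDR rows of the block formed 52 merged intervals, 50 of them with their strongest summit at a promoter, and the 19 of the rest formed 17. A wide one of 6019 bp held 6 IDR summits, whose nearest starts were those of CG17768, Ir31a and Ip259. The strongest summits per merged interval had a median multiple of 30.3 in the block and 8.91 in the rest.

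Of 97 protein-coding genes with a TSS in the block, 80 (82.5%) were bound, meaning that an IDR summit lay within 500 bp of a TSS. In the rest 23 of 94 (24.5%) were bound, close to the 30.7% of all 13945 protein-coding genes on the 6 main chromosomes. The 80 genes shared 59 distinct strongest summits, so they are not separate observations. With the 5048 strongest rows of each replicate's own list, 80 and 25 genes were bound in replicate 2 and 80 and 22 in replicate 3. Of the bound genes, 79 in the block and 22 in the rest were the same in the IDR list and both replicates. Multiples at bound genes ran from 4.39 to 332.7 in the block, with a median of 44.7, and from 4.46 to 21.5 in the rest, with a median of 9.78. In the block, 57 of 80 bound genes were above the strongest of the rest. In the rest, 22 of the 23 had their strongest summit inside the interval, and that of CG31875 lay just left of it.

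Divergent genes, those with a protein-coding start on the opposite strand within 500 bp upstream, were 39 of 97 (40.2%) in the block and 16 of 94 (17%) in the rest, against 27.4% of all protein-coding genes. They were bound about as often in both places, 35 of 39 (89.7%) and 14 of 16 (87.5%), against 64.4% of all such genes. The other genes differed: 45 of 58 (77.6%) were bound in the block and 9 of 78 (11.5%) in the rest, against 18.1% of all such genes. Among all pooled summits, 94 of the 97 genes of the block had one at a promoter, compared with 37 of 94 in the rest and 46.3% of all.

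The bound genes of the block named here from their products were picked after their values were seen. The gene da, which encodes the transcription factor Daughterless, had 171.9 pooled, 136.9 in replicate 2 and 140.7 in replicate 3, and chico, the insulin receptor substrate, had 28.7, 17.6 and 26.7. Among cell cycle and DNA synthesis genes, pim, the securin, shared 88.6, 65.2 and 75.6 with Cand1, an exchange factor of cullin ligases. RnrL, the large subunit of ribonucleotide reductase, had 22.8, 15.6 and 20.1, and RfC3, a clamp loader subunit, had 29.1, 20.4 and 25.3. These genes were all above the strongest promoter of the rest in the pooled list, but they do not stand for the bound genes of the block. Of those, 57 of 80 were above it, and others, such as RpL7 with 12.9, were not.

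Utx, a histone demethylase, had 71.8, 60.4 and 57.2, and SmB, a core splicing protein, shared 28.4, 17 and 26.8 with KdelR, a retrieval receptor of the endoplasmic reticulum. In the families counted by symbol, both ribosomal protein genes of the block were bound, RpS27A as above and RpL7 with 12.9, 7.19 and 12.3. The single mitochondrial ribosomal, proteasome and elongation factor genes, mRpS7, Prosalpha6 and eEF1delta, were bound too. Of the chemosensory and pickpocket genes, Ir31a, an ionotropic receptor, was bound at 28.7, through a summit it shared with LSm-4, an RNA processing factor, and ppk10, a sodium channel subunit, was not. In the rest, ATPsynG, of the mitochondrial ATP synthase, was bound at 8.16, through a summit it shared with another gene whose start was nearer. The cuticle protein gene Cpr31A was not bound. Of the genes named as non-coding, 1 of 5 in the block and 0 of 21 in the rest were bound, against 6.94% of all genes so named.

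Of the 17 unbound genes of the block, 14 had a pooled summit at a promoter, with a median multiple of 1.77 and a highest of 2.9. In the rest, 14 of 71 unbound genes had one, with a median of 1.57. Over all protein-coding genes the share was 46.3%, but that counts bound genes too and is no like background for unbound ones. Pooled summits of the block had a median gap of 852.5 bp, against 1123.5 bp in the rest. The block was chosen on the density of pooled summits, so its count is no independent result. Among the 8 longest unbound genes of the block, Frmd5, a FERM-domain gene, had 2.9 pooled, 2.26 in replicate 2 and 2.37 in replicate 3. CG5381 had 2.71, 3.4 and 1.6. LManI and LManII, lysosomal mannosidases, shared 2.38, 0.529 and 2.69. Among the 8 longest genes, the replicates stood farthest apart at that pair.

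CG34367 had 1.91, 0.825 and 2.39, and RluA-2, named for pseudouridine synthase, had 1.63, 0.869 and 1.27. The receptor gene mthl15 and Cdk5alpha, the activator of the neuronal kinase Cdk5, had no pooled summit at a promoter. Hand, a transcription factor of the heart, and trk, the ligand of the terminal receptor Torso, were also unbound, at 1.36 and 1.21 pooled. The median length of unbound genes of the block was 2707 bp and that of bound ones 2046.5 bp, while in the rest the order was the opposite, 2137 bp and 2997 bp.

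Rows of the block overlapped rows of both replicates more often than those of the rest, but the replicate lists also covered more of the block. Rows of replicate 2 covered 51% of the bases of the block and 9.72% of the rest, and those of replicate 3 covered 53.6% and 6.15%. A row of the block would thus meet both lists more often wherever it lay, so the shares below do not measure reproducibility apart from density. A pooled row overlapped a row of both replicate lists in 89.6% of the block (268 rows) and 63.4% of the rest (71 rows), against 69.7% of the whole list. Away from promoters the shares were 83%, 45% and 63.1%. The list of replicate 2 met 95% of the block's rows and 72.3% of those of the rest, while replicate 3 met 94.3% and 89.3%. Asking for an overlap of at least 0.5 of the pooled interval lowered the difference between block and rest from 26.2 to 10.2 percentage points.

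Over IDR rows, the ratio of signal between replicates had a larger SD in the block, but these rows are not separate observations. The 102 IDR rows of the block formed 52 merged intervals, and neighbouring rows can share a replicate value. For IDR rows with a summit of both replicates within 250 bp, the log2 ratio of the multiple in replicate 3 to that in replicate 2 had a median of 0.21 and an SD of 0.75 in the block (n = 101 rows). The values were -0.02 and 0.48 in the rest (n = 19 rows), and 0.06 and 0.61 in all 4916 such rows. At the 15 strongest merged intervals of the block, with 1 summit each, the log2 ratio ran from -0.919 to 0.272. At the 5 strongest of the rest it ran from -0.332 to 0.457. These summits were picked for their pooled signal, so their log2 ratios do not stand for all IDR rows, whose SD in the block was 0.75.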

How the data were processed

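Peaks of eGFP-tagged CG30020 from 2 embryo libraries were taken from 4 deposited peak lists on dm6: 1 for each replicate and 1 for both pooled, of 30000 rows each, and the IDR list of 5048 rows. Replicate and pooled lists were called against 1 control alignment, per the notes deposited with the files. Aligner, caller and versions: not given in the sources used here. The deposited signal value of each peak is the authors' own, on an unstated scale, and was divided by the median of its list; IDR rows use the pooled median. The deposited −log10 q value was capped at 4.23 in all IDR rows and in 8491 pooled rows, and ranked nothing. The deposited summit offset, another measure, gave the summit as start plus offset. Depth is unknown, so no interval or floor is given.

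A pooled row was in the IDR list where start, end and summit were the same (all 5048 matched). TSSs, classes and genes came from Ensembl release 115 without transposable elements, on 6 chromosomes, and sequence from RefSeq Release 6. A replicate value is that of the strongest summit within 250 bp, so neighbouring rows can share one. Overlap means at least 1 bp. Summits are printed 1-based.

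No test was run, as there is 1 group and the block was chosen on these peaks. The members and lists were chosen with earlier results of these data known. Genes were named by rule: the nearest gene, and others within 500 bp, at the 15 strongest merged IDR intervals of the block and 5 of the rest, the strongest 5 and 3 rows away from promoters, the 8 longest unbound block genes and the symbol families. One of the 15 is not reported here. The genes CG31875, RluA-1, LSm-4, da, chico, pim, Cand1, RnrL, RfC3, Utx, SmB, KdelR, Hand and trk, and those named at the block edge or in wide intervals, fall outside the rule and were chosen after their values were seen. Alternatives were the lists without a replicate, block edges moved by 50 kb, IDR rows only, merged intervals, other windows, TSS sets and overlap rules. Python 3.11.15, numpy 2.4.6 and pandas 2.3.3 were used, with functions tested on simulated data.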

Additional observations from a re-analysis of the deposited data

How the results depend on the processing

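The density ratio of block to rest, 6.23, was 4.67 to 6.6 with 1 replicate's list left out, 12.5 for IDR rows and 4.43 with the block edges moved inward by 50 kb. The coverage ratio of 8.68 was 5.24 to 8.72 with 1 replicate left out, and 29.8 and 5.43 under the other 2 settings. Without replicate 3 (the list of replicate 2 alone), the coverage ratio fell to 5.24. The ratio of median signal, 1.37, was 1.31 to 1.68 with 1 replicate left out and 2.1 for IDR rows. It turned below 1, to 0.971, with 1 summit per merged interval.

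The promoter share differed by 0.394 percentage points between block and rest. It was -1.06 to 8.33 with 1 replicate left out, -9.33 with edges moved outward, -4.9 for IDR rows, -2.14 for merged intervals and -1.96 with a window of 1000 bp, so it has no stable sign. The difference in bound genes, 58 points, was 51.7 and 48.6 with edges moved inward and outward, 53 with a window of 200 bp, 61.2 by interval overlap and 55.9 to 59.1 with 1 replicate left out. The difference in the share of rows in the IDR list, 17.1 points, was 13.1 when any overlap counted, and that in replicate overlap, 26.2, was 10.2 when at least 0.5 of the interval had to be met. The TSS density ratio of 2.08 was 2.45 for protein-coding genes and 1.93 with 1 TSS per gene. The GC difference of 1.3 points was 0.118 within 100 bp and -1.32 for IDR rows.

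Chosen after seeing the data, 6 further alternatives concerned density, coverage and signal. The density ratio was 7.78 when the 60 kb right of the block were left out of the rest and 2.99 per annotated TSS, and the signal ratio was 2.73 for promoter rows alone. The cause of these shifts was not tested. Each library's depth and the scale of the signal are unknown, so heights can be compared only as multiples within a list, and 2 replicates give no test.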
